A study of Mus musculus with 3 samples.

Results

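The genes described here are 8 C-type lectins that mark or arm myeloid cells: Mrc1, Mgl2, Clec10a, Clec4n, Clec4d, Clec4e, Clec7a and Cd209a. They were chosen by gene symbol, and 7 of the 8 had a row among the 32285 genes of the count tables; Clec7a was not analysed here. Droplet sequencing of single lung cells gave 3 libraries from mice aged 3 months, 1 each under the treatment labels PD00, Model and Control. Ovalbumin (OVA) as the inducing agent, and a peptidomimetic called PD00, are named by the series title. The labels call the tissue of all 3 libraries healthy, do not give the number of animals per library, and do not say whether the PD00 mice also received ovalbumin.

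C-type lectin receptors bind sugars and lipids on microbes, allergens and dying cells. Mrc1 (the mannose receptor, CD206) and the galactose-type lectins Mgl2 and Clec10a take up glycoproteins, and Mgl2 is a classic interleukin-4 responsive gene of mouse macrophages and a marker of type 2 conventional dendritic cells. Clec4n (Dectin-2), Clec4e (Mincle) and Clec4d (MCL) instead work with the Fc receptor gamma chain, which recruits the kinase Syk and, through Card9, Bcl10 and Malt1, switches on NF-kappaB. Cd209a is a mouse relative of the human dendritic cell lectin DC-SIGN.

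Each cell was assigned to the type with most of its 8 marker genes detected, at least 4, and the UMIs (unique molecular identifiers, each standing for 1 captured RNA molecule) of a type were summed per library and expressed as CPM, the count per 1000000 UMIs of that sum. None of the 7 genes served as a marker. The alveolar macrophage gate held 1336 PD00 cells, 938 Model cells and 2910 Control cells, and the interstitial macrophage gate held 464, 642 and 205. A further gate led by Gpnmb, Trem2, Mmp12 and Spp1 held 612 PD00 cells, 968 Model cells and 8 Control cells, too few in Control for a value. As an exception, a cell led by that list but with Plet1 and at least 3 alveolar markers was called an alveolar macrophage. Type 2 conventional dendritic cells were few, with 49, 50 and 21 cells in PD00, Model and Control. Classical monocytes numbered 50, 148 and 126 in the same order. Plet1 and Lpl, both among the 8 markers that define the alveolar gate, were detected in at least 99.0% of it in every library. This follows in part from the gating and is no independent check of it. Marco, another alveolar marker, was detected in only 1.05% of PD00, 1.60% of Model and 7.70% of Control cells of that gate. Cidec was detected in 45.3%, 28.3% and 82.9% of them, so the gate did not hold the same expression state in the 3 libraries. In an unsupervised clustering 94.8% of the Control alveolar gate lay in a cluster that differed from the one holding 88.2% of the PD00 gate and 69.5% of the Model gate. Median depth in this gate was 18844.5 UMIs per cell in PD00, 18159 in Model and 14887 in Control. Libraries shared 31 to 43 cell barcodes. With 1 library per condition nothing here has a replicate to check it, no p-value could be computed, and all 95% intervals cover counting error only. PD00 and Control were each set against the same Model library, so the 2 comparisons are not independent. T cells, which should lack these receptors, served as the measure of background from free RNA for the 7 lectins. For other genes the T cell level is given for comparison only, because T cells may express those genes themselves.

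**Figure D1:**
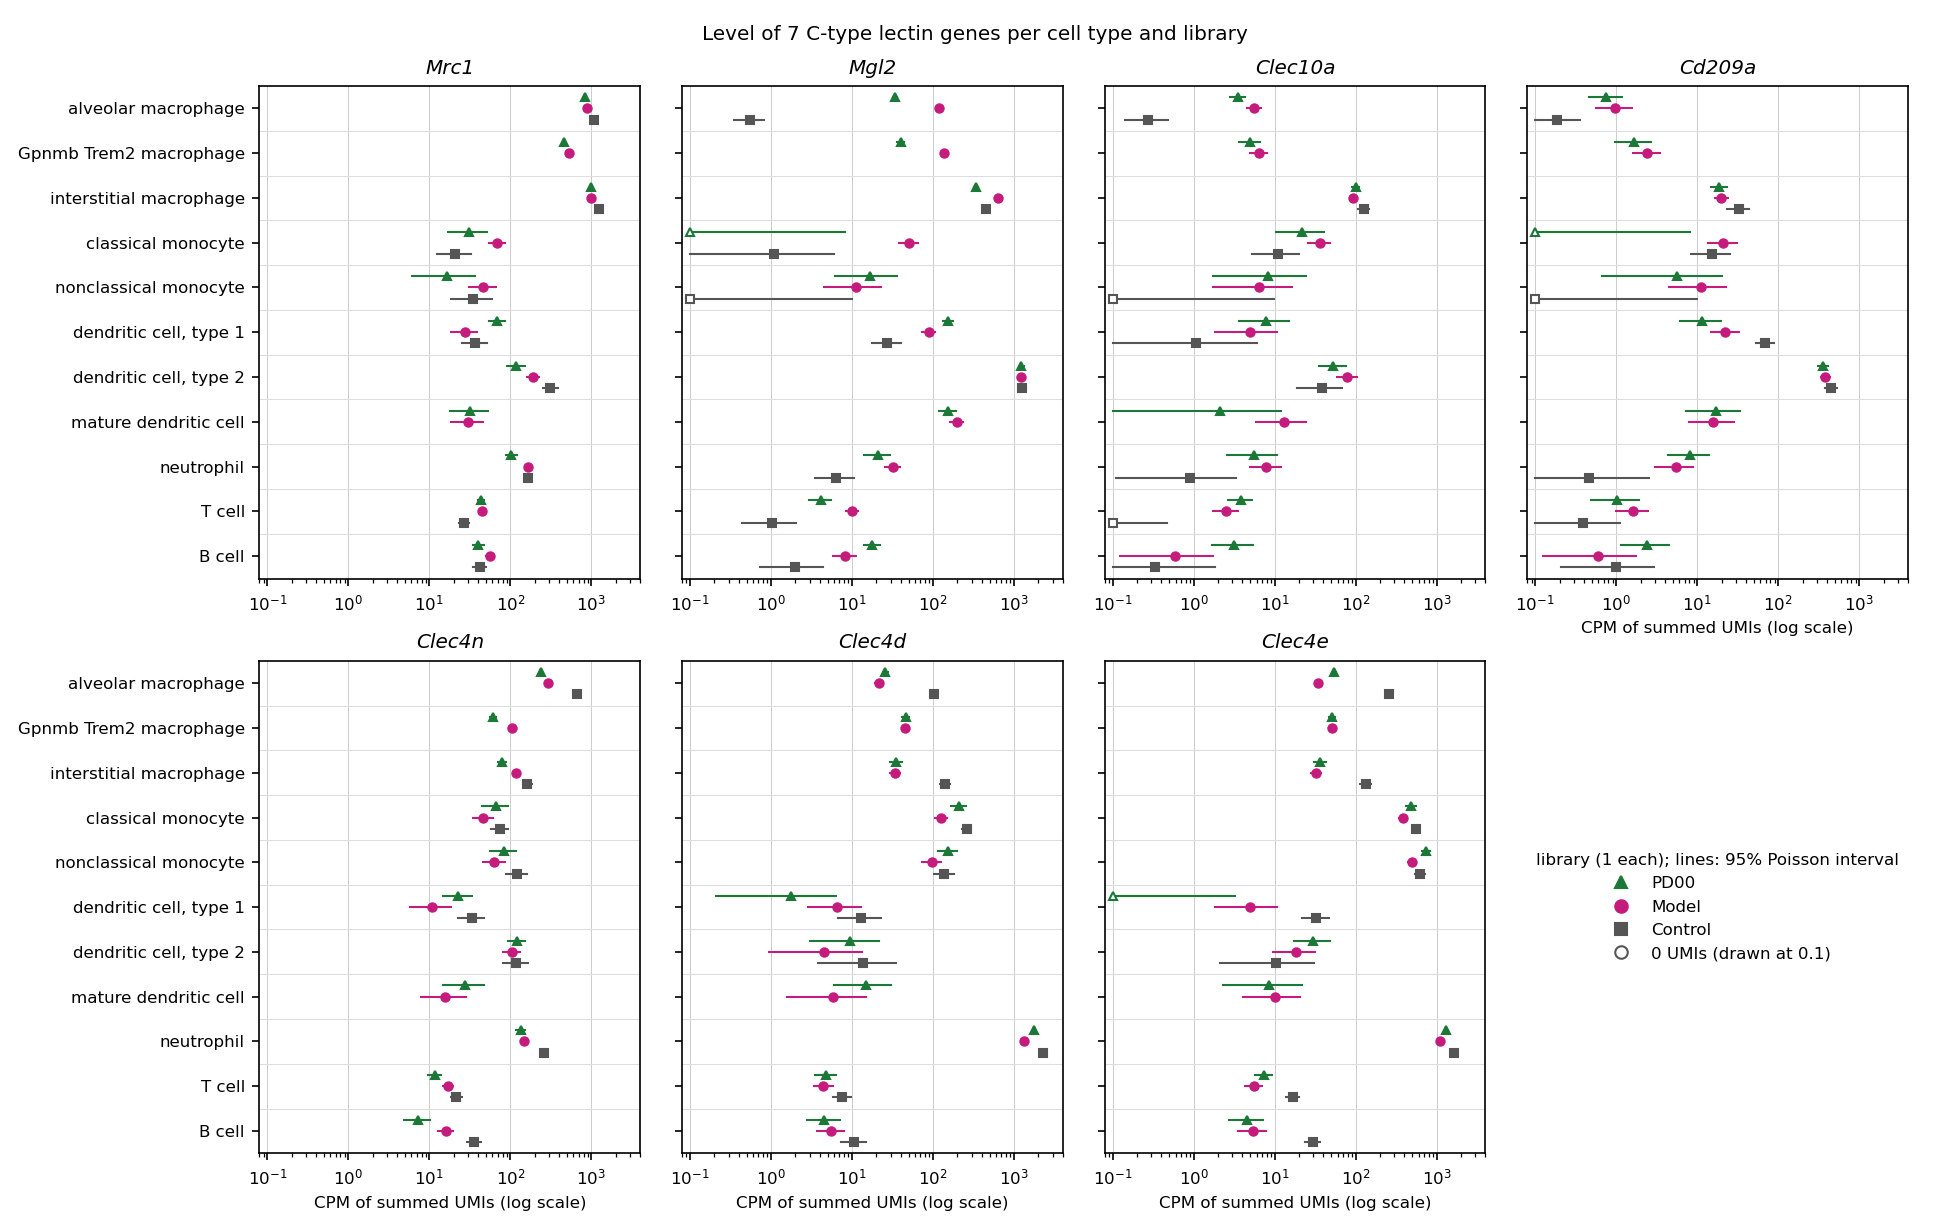
Level of each gene (CPM of UMIs summed per cell type and library, log axis) in 9 myeloid types and in T and B cells, with triangles for PD00, circles for Model and squares for Control, lines for 95% Poisson intervals and open symbols for 0 UMIs; types with fewer than 20 cells in a library are left out. Mgl2 in alveolar macrophages stood at 33.8, 118 and 0.550 CPM in PD00, Model and Control, while Clec4e there stood at 53.7, 34.6 and 261 CPM.

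Mrc1 lies on chromosome 2 (GRCm38 chr2:14229392-14332057, plus strand), overlaps the microRNA gene Mir511 on the same strand, and encodes the endocytic mannose receptor of tissue macrophages. In alveolar macrophages it stood at 832 CPM in PD00, 872 CPM in Model and 1081 CPM in Control. It was detected in 99.5%, 97.9% and 99.5% of the cells. Interstitial macrophages held 994 CPM in PD00, 985 CPM in Model and 1257 CPM in Control. The 3 libraries therefore lay close together in both gates. Model was 0.806 of Control in alveolar macrophages (95% interval 0.791 to 0.821) and 0.784 of it in interstitial macrophages (0.742 to 0.828), and PD00 was 0.954 (0.935 to 0.974) and 1.01 (0.970 to 1.05) of Model. The Gpnmb Trem2 gate held less Mrc1, 455 CPM in PD00 and 532 CPM in Model. Type 2 dendritic cells held 118 CPM in PD00, 190 CPM in Model and 311 CPM in Control. The PD00 and Control intervals did not overlap (90.6 to 151 and 250 to 382 CPM), but 32 of the 90 Control UMIs came from 1 cell. The 8 alveolar macrophage markers summed to 296 CPM in PD00, 360 CPM in Model and 684 CPM in Control type 2 dendritic cells, with 7, 4 and 6 of them detected, and their part in this difference was not tested. Neutrophils held 102, 166 and 164 CPM in PD00, Model and Control, but only 10.7%, 16.6% and 12.2% of them had a UMI, against 13.7%, 13.3% and 10.9% of T cells. After thinning to 1000 UMIs the shares were 5.12%, 7.91% and 7.59% of neutrophils, against 2.59%, 3.23% and 2.66% of T cells. The neutrophil share was thus near that of T cells without thinning, at median depths of 1986.5 to 2092.5 UMIs in neutrophils and 4272 to 4467 in T cells, and above it at equal depth. T cells stood at 43.4, 45.2 and 26.7 CPM, while monocytes and type 1 dendritic cells held 16.7 to 69.0 CPM over the 3 libraries, a range that overlaps the 26.7 to 55.8 CPM of T and B cells. The alveolar gate accounted for 67.6% of all Mrc1 UMIs in kept PD00 cells, 50.1% in Model and 92.1% in Control. Over all kept cells Mrc1 in Model (381 CPM) and in Control (663 CPM) gave a ratio of 0.574 that goes with an alveolar gate of 8.31% of Model and 31.1% of Control cells.

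Mgl2 (chr11:70130329-70137550, plus strand) is a galactose-type lectin also known as CD301b, and was the gene that differed most between libraries. Its promoter is shown because the alveolar macrophage level differed so widely between libraries while the level in type 2 dendritic cells did not. The RefSeq sequence of GRCm38.p6, chr11:70130107-70130406, plus strand, runs from 250 bases before to 50 bases after the start site. The capitals mark GGAAGT, the core bound by the myeloid factor PU.1, at position -249.
Mgl2 promoter: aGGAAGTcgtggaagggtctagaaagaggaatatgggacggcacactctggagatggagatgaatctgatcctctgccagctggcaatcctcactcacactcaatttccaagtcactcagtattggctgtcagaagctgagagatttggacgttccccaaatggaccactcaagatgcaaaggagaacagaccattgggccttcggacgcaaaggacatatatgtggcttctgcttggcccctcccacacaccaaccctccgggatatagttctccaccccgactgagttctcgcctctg
GGAAGT, on either strand, is found in 23.8% of 32817 RefSeq promoters of this length. The letters TTCNNNNGAA, a spacing bound by the interleukin-4 factor STAT6 and present in 6.94% of the promoters, are not in this window.

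In alveolar macrophages Mgl2 had 895 UMIs in PD00 (33.8 CPM), 2056 in Model (118 CPM) and 24 in Control (0.550 CPM). Control alveolar macrophages were below their T cells (1.03 CPM), so in CPM the gene was not above background there. In Model they stood well above their T cells, which held 10.1 CPM, and in PD00 above T cells at 4.10 CPM. Model was 214-fold above Control (95% interval 144 to 335), against a Control level of 24 UMIs. Over the other ways of processing the factor ranged from 88.6 to 1568. The lowest left cells with Plet1 in the Gpnmb Trem2 gate, and the highest had T cell levels subtracted. PD00 was 3.49-fold below Model (3.22 to 3.78). The share of alveolar macrophages with a UMI was 27.0% in PD00, 53.1% in Model and 0.756% in Control, against 1.98%, 4.39% and 0.433% of T cells. With every cell thinned to 1000 UMIs these alveolar shares were 3.29%, 8.87% and 0.0688%. The most UMIs in 1 Model cell were 50 of 2056, so no single cell carried the level. Markers of interstitial macrophages and type 2 dendritic cells, which both hold Mgl2, moved with it in the alveolar gate, all 8 of each list being detected in every library. Those of interstitial macrophages summed to 464 CPM in PD00, 591 CPM in Model and 170 CPM in Control. Those of type 2 dendritic cells summed to 887, 983 and 410 CPM in the same order of libraries. Alveolar macrophages may express some of these markers themselves, so the sums do not measure RNA of other cells alone. The part of these markers in this difference was not tested.

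Interstitial macrophages held Mgl2 in all 3 libraries: 339 CPM in PD00, 641 CPM in Model and 445 CPM in Control. Model was 1.44-fold above Control (1.32 to 1.57), a difference that turned to a ratio of 0.864 when cells were thinned to 1000 UMIs. PD00 was 1.89-fold below Model (1.78 to 2.01). The share of interstitial macrophages with a UMI differed little, 61.9% in PD00, 66.4% in Model and 62.9% in Control. The UMIs per positive cell differed more, at 4.91 in PD00, 9.05 in Model and 4.48 in Control. The Gpnmb Trem2 gate had 39.9 CPM in PD00 and 137 CPM in Model, a fold of 3.43 lower in PD00 (3.07 to 3.85). Different clusters made up that gate: 1 cluster held 78.9% of its PD00 cells and 49.5% of its Model cells, and another held 37.5% of its Model cells. Its 8 neutrophil markers, all detected, summed to 269 CPM in PD00 and 698 CPM in Model, and the part of these differences in the values of the gate was not tested.

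Type 2 dendritic cells held the highest Mgl2 level of any myeloid gate in every library, and there the libraries did not separate: 1229 CPM in PD00, 1205 CPM in Model and 1271 CPM in Control. PD00 was 1.02 times Model (0.919 to 1.13) and Model was 0.948 of Control (0.836 to 1.07). It was detected in 81.6% of these cells in PD00, 76.0% in Model and 57.1% in Control. Type 1 dendritic cells held 153 CPM in PD00, 88.3 CPM in Model and 27.1 CPM in Control. Model was 3.26-fold above Control there (2.09 to 5.26), and PD00 was 1.73-fold above Model (1.36 to 2.23). With types taken from the clustering the Model over Control factor was 1.47, but only 49.1% of that cluster's cells were gated as type 1. It also held most gated type 2 dendritic cells, so that value does not describe type 1 cells alone. In classical monocytes the 58 Model UMIs (50.6 CPM) included 47 from 1 cell, beside 0 UMIs in PD00 and 1 UMI in Control. Nonclassical monocytes had 6, 7 and 0 UMIs in PD00, Model and Control. Mature dendritic cells, gated by Ccr7 and Fscn1, held 151 CPM in PD00 and 196 CPM in Model, of which 82 of 136 Model UMIs came from 1 cell. In descending order the Model levels ran from type 2 dendritic cells over interstitial macrophages, the Gpnmb Trem2 gate and alveolar macrophages to type 1 dendritic cells, and no 2 neighbours among these gates had overlapping counting intervals. Mature dendritic cells and the 22 plasmacytoid dendritic cells (605 CPM, 95 of 97 UMIs in 1 cell) are left out of that order because 1 cell held most of their UMIs.

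Clec10a (chr11:70156197-70170834, plus strand; CD301a) is the second mouse galactose-type lectin and the neighbour of Mgl2 on chromosome 11. Of the 451 windows of 50 bases in the last 500 bases of its transcript, 92 (20.4%) also occur in Mgl2, so counts near its end may be lost or shared and its values are uncertain. Interstitial macrophages held it at 99.9 CPM in PD00, 92.5 CPM in Model and 125 CPM in Control, detected in 31.2%, 31.2% and 30.2% of them. These libraries lay close together: PD00 was 1.08 times Model (0.948 to 1.23) and Model was 0.737 of Control (0.618 to 0.883). Type 2 dendritic cells held 52.4, 79.0 and 38.0 CPM from 28, 52 and 11 UMIs. In classical monocytes it stood at 22.0, 35.8 and 10.9 CPM in PD00, Model and Control, with a Model over Control ratio of 3.29 (1.62 to 7.37) from 41 and 10 UMIs. Alveolar macrophages had 3.51 CPM in PD00, 5.62 CPM in Model and 0.275 CPM in Control, beside 3.79, 2.53 and 0 CPM in T cells. PD00 alveolar macrophages were at the background level, and the 20.4-fold ratio of Model over Control (11.2 to 40.9) sets 98 UMIs against 12. The plasmacytoid dendritic cell gate of Model, with 22 cells, held 93.6 CPM from 15 UMIs and had it in 54.5% of cells; that of PD00, with 11 cells, held 105.1 CPM from 9 UMIs and had it in 54.5% too. In neutrophils, nonclassical monocytes, the Gpnmb Trem2 gate and type 1 and mature dendritic cells it stood between 0 and 12.9 CPM.

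Cd209a (chr8:3743397-3748984, minus strand) stood highest, among the gates named here, in type 2 dendritic cells. These held 356 CPM in PD00, 380 CPM in Model and 446 CPM in Control. The small plasmacytoid dendritic cell gates of Model and PD00 held it too, above the other gates named below. The 3 libraries overlapped within counting error. Model was 0.852 of Control (0.686 to 1.06) and PD00 was 0.936 of Model (0.771 to 1.13). After thinning to 1000 UMIs the PD00 over Model ratio was 0.571, a value that may rest on few counts. It was detected in 67.3%, 74.0% and 61.9% of these cells in PD00, Model and Control, and type 2 dendritic cells carried 45.5%, 38.7% and 38.9% of its UMIs. Type 1 dendritic cells held 11.4, 22.3 and 69.4 CPM, but 25 of the 27 Model UMIs and 10 of the 13 PD00 UMIs came from 1 cell each. Interstitial macrophages had 18.8 CPM in PD00, 19.8 CPM in Model and 32.3 CPM in Control, a Model over Control ratio of 0.611 (0.427 to 0.891) that was 0.866 with types taken from the clustering. Monocytes held 0 to 21.0 CPM, from at most 24 UMIs in a library. In alveolar macrophages Cd209a (0.756, 0.975 and 0.183 CPM) did not exceed T cells (1.02, 1.61 and 0.385 CPM).

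Clec4n, Clec4d and Clec4e lie next to each other on chromosome 6 (chr6:123229843-123247021, plus; chr6:123262111-123275265, plus; chr6:123281789-123289870, minus), and none of the windows near their transcript ends occurs in another gene. Clec4n, the fungal mannan receptor Dectin-2, was led by alveolar macrophages: 238 CPM in PD00, 291 CPM in Model and 660 CPM in Control. Both PD00 and Model lay well below Control, and the intervals of all 3 were apart. Model was 2.27-fold below Control (2.20 to 2.34), and PD00 was 1.22-fold below Model (1.18 to 1.27). It was detected in 86.9%, 82.0% and 98.1% of alveolar macrophages, and in 20.9%, 23.9% and 45.9% after thinning to 1000 UMIs, beside 4.01%, 4.31% and 8.90% of T cells without thinning. The Gpnmb Trem2 gate held 61.1 CPM in PD00 and 106 CPM in Model, 1.73-fold lower in PD00 (1.57 to 1.92), a difference under 1.5-fold when cells with Plet1 were left in that gate. Interstitial macrophages held 79.2 CPM in PD00, 118 CPM in Model and 162 CPM in Control. The 8 alveolar macrophage markers, all detected, summed to 199 CPM in PD00, 367 CPM in Model and 576 CPM in Control interstitial macrophages, in the same order, and their part in this difference was not tested. Type 2 dendritic cells held 120, 104.8 and 117 CPM, whose intervals overlap, and type 1 dendritic cells 22.8, 10.7 and 33.6 CPM. Neutrophils stood at 134, 148 and 260 CPM, with Model 1.76-fold below Control (1.55 to 2.004). Classical monocytes had 65.9, 46.3 and 74.0 CPM and nonclassical monocytes 83.3, 63.4 and 121 CPM, with Control highest and Model lowest in both. The intervals of the 3 libraries overlapped in classical monocytes (44.5 to 94.1, 34.7 to 60.5 and 57.5 to 93.8 CPM).

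Clec4d and Clec4e encode partner receptors, MCL and Mincle, that pair on the cell surface and bind mycobacterial glycolipids. Their promoters are shown because the levels of the 2 genes moved together over cell types and libraries. The capitals mark GGAAGT in the first, at position -35, and in the second TTGTGCAA at position -66, which reads as TTGCNNAA, the letters bound by C/EBP factors, on the other strand; the sequences are RefSeq, GRCm38.p6, chr6:123261857-123262156, plus strand, and chr6:123289822-123290121, minus strand.
Clec4d promoter: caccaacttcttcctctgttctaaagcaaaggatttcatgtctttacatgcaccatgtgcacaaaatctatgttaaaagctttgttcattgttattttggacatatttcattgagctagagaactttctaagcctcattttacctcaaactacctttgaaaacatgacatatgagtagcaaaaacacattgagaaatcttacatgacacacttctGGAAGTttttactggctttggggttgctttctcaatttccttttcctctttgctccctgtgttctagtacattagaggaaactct
Clec4e promoter: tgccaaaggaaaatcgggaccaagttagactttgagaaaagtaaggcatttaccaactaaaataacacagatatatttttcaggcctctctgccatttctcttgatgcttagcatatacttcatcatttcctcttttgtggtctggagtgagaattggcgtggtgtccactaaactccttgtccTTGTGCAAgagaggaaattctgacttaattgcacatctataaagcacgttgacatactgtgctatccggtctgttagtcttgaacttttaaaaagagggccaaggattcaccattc
TTGCNNAA, searched on both strands, is found in 10.8% of the 32817 promoters and was not found in the Clec4d or Mgl2 windows. TGANTCA, the AP-1 letters present in 7.81% of promoters, was in none of the 3.

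Both genes were led by neutrophils. Clec4d stood at 1764 CPM in PD00, 1312 CPM in Model and 2290 CPM in Control neutrophils, and Clec4e at 1314, 1097 and 1643 CPM. Control was highest and Model lowest for each, with no overlap of intervals. Model was 1.75-fold below Control for Clec4d (1.67 to 1.82) and 0.668 of it for Clec4e (0.636 to 0.701). The PD00 over Model ratio was 1.34 for Clec4d (1.28 to 1.41) and 1.198 for Clec4e (1.13 to 1.27).

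Alveolar macrophages showed the widest gap in this pair. Clec4e had 1422 UMIs in PD00 (53.7 CPM), 604 in Model (34.6 CPM) and 11378 in Control (261 CPM). Model was 7.53-fold below Control (6.94 to 8.18). PD00 was 1.55 times Model (1.41 to 1.71), a ratio of 1.39 as a mean over cells. Clec4d in the same cells stood at 25.8 CPM in PD00, 21.3 CPM in Model and 102 CPM in Control, with Model 4.76-fold below Control (4.28 to 5.30) and PD00 1.21 times Model (1.06 to 1.38). The share of alveolar macrophages with a Clec4e UMI was 46.1% in PD00, 31.8% in Model and 80.1% in Control, beside 2.64%, 2.46% and 5.50% of T cells. T cells of Model were 3.02-fold below those of Control as well (2.25 to 4.09), at 5.52 and 16.7 CPM. With the T cell level of each library subtracted, the Model over Control ratio of Clec4e in alveolar macrophages was 0.119. The summed CPM of the 8 neutrophil markers in the alveolar gate was 198 in PD00, 298 in Model and 327 in Control, beside 143, 205 and 199 in T cells, with all 8 detected in each.

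In interstitial macrophages Clec4d stood at 34.9 CPM in PD00, 34.0 CPM in Model and 142 CPM in Control. Clec4e stood at 36.3, 32.7 and 132 CPM in PD00, Model and Control. PD00 and Model overlapped and both lay below Control. Model was 4.16-fold below Control for Clec4d (3.39 to 5.10) and 4.05-fold below it for Clec4e (3.28 to 4.99); the Clec4e ratio was 0.247, or 0.5 after thinning. The 8 neutrophil markers summed to 226 CPM in PD00, 374 CPM in Model and 1102 CPM in Control interstitial macrophages, with all 8 detected in each; they moved with the pair, and their part in this difference was not tested. Monocytes kept the pair at a high level in all libraries. Clec4e in nonclassical monocytes stood at 736 CPM in PD00, 494 CPM in Model and 625 CPM in Control. In classical monocytes it stood at 481, 379 and 549 CPM in the same order. In nonclassical monocytes PD00 was 1.49 times Model for Clec4e (1.26 to 1.76). Clec4d in classical monocytes stood at 209, 126 and 259 CPM, Model being 2.06-fold below Control (1.67 to 2.55) and PD00 1.66 times Model (1.27 to 2.17), a ratio of 0.935 after thinning. The Gpnmb Trem2 gate had Clec4d at 45.8 CPM in PD00 and 45 CPM in Model, and Clec4e at 51.5 CPM in both. Dendritic cell gates had at most 14.9 CPM of Clec4d and 32.5 CPM of Clec4e.

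**Figure D2:**
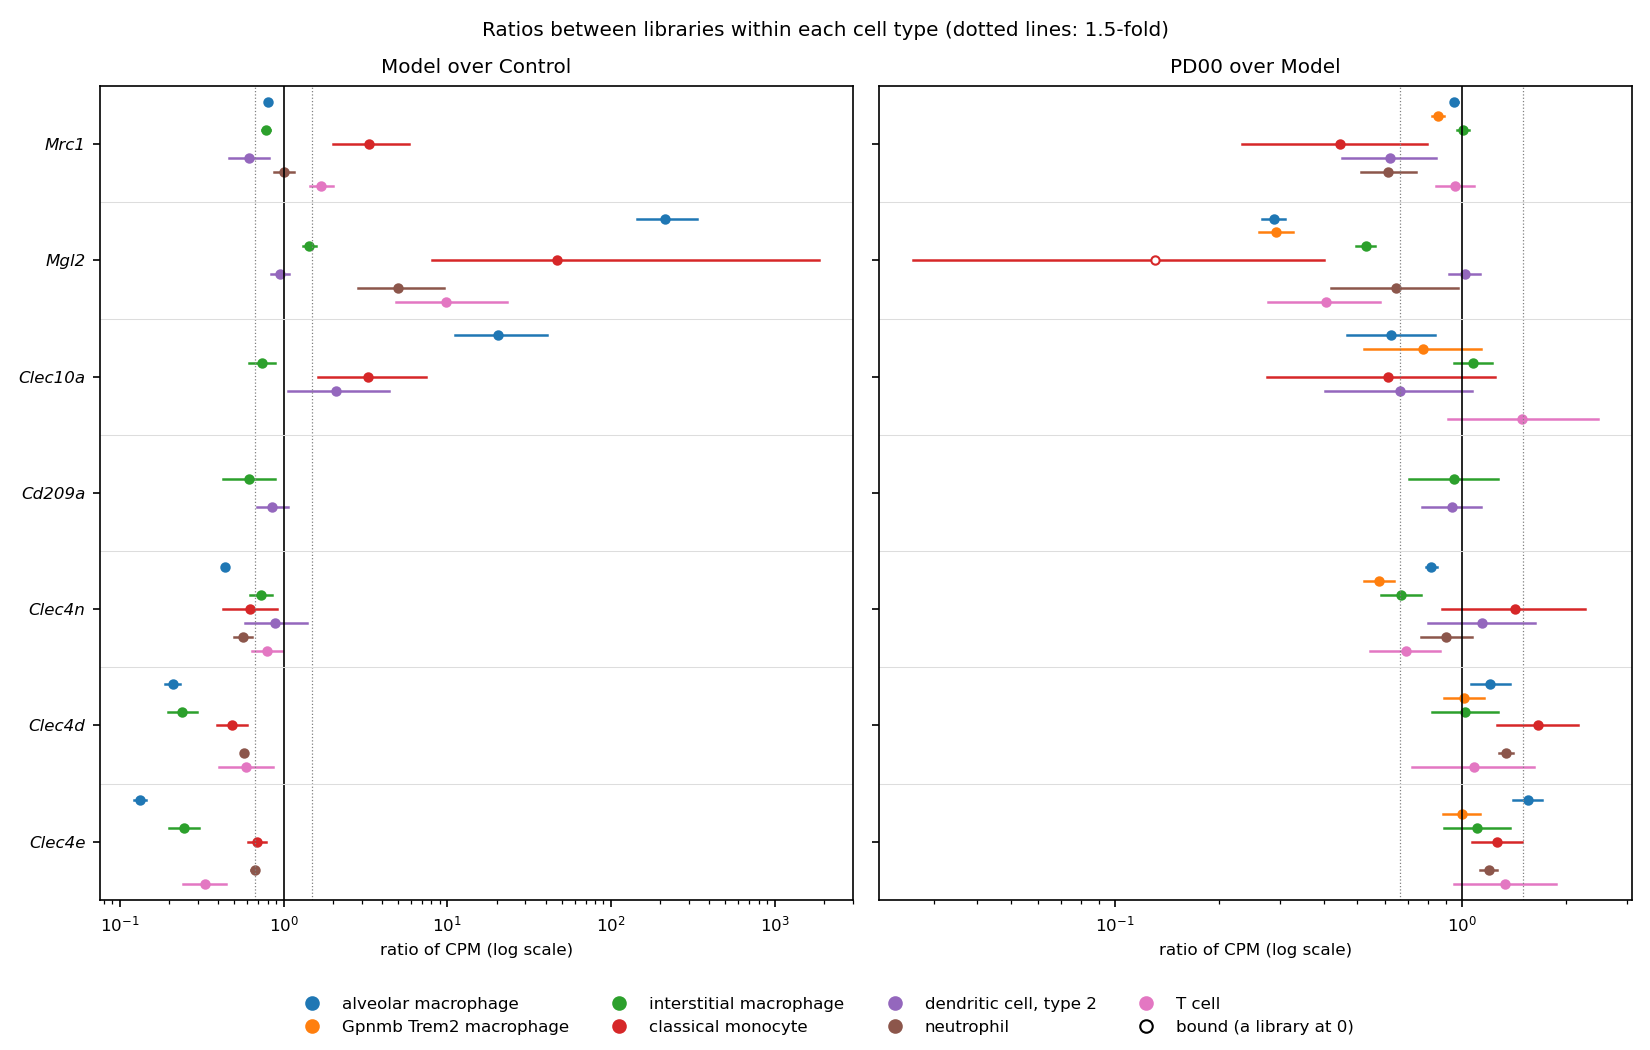
Ratio of CPM between libraries for each gene within 7 cell types (Model over Control on the left, PD00 over Model on the right, log axes with different ranges), with lines for 95% counting intervals, dotted lines at 1.5-fold, an open circle for a bound, and only pairs with at least 50 UMIs. In alveolar macrophages Model over Control was 214 for Mgl2 and 0.133 for Clec4e, and PD00 over Model was 0.287 and 1.55.

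Counted at a 1.5-fold difference among genes with at least 50 UMIs, the lectins went both ways in alveolar macrophages of Model against Control. Mgl2 and Clec10a were higher and Clec4n, Clec4d and Clec4e lower, 2 and 3 of 6 measured, where 15.7% and 24.6% of 11599 genes were. The median of all genes in that comparison was -0.18 on the log2 scale, beside -0.75 for the 6 lectins. In interstitial macrophages 0 of 7 were higher and 3 (Clec4d, Clec4e and Cd209a) lower, where 17.5% and 14.5% of genes were. In classical monocytes Mrc1, Mgl2 and Clec10a were higher and Clec4n and Clec4d lower, 3 and 2 of 6, against 12.5% and 4.43% of genes. Mgl2 there set 58 Model UMIs, 47 of them in 1 cell, against 1 in Control. The Clec4n ratio of 0.626 became 0.687 with gates of 5 markers. In type 2 dendritic cells Clec10a was higher and Mrc1 lower, 1 and 1 of 5, against 16.4% and 10.4%. In neutrophils Mgl2 was higher, 32.0 CPM in Model against 6.38 CPM in Control, and Clec4n and Clec4d were lower, 1 and 2 of 5, against 20.3% and 8.33%. T cells differed more in Mgl2, at 10.1 CPM in Model against 1.03 CPM in Control. Mgl2 was detected in 4.83% of Model neutrophils and 4.39% of Model T cells, and 32 of the 89 Model UMIs in neutrophils came from 1 cell. The Clec4d ratio of 0.573 became 0.724 after thinning and the Clec4n ratio of 0.568 became 0.677.

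For PD00 against Model the background of genes past 1.5-fold was smaller in the alveolar and interstitial macrophage gates. In alveolar macrophages Clec4e was higher and Mgl2 and Clec10a lower, 1 and 2 of 6, where 2.79% and 6.39% of 11177 genes were. The Clec10a ratio of 0.625 became 0.997 when cells with Plet1 were left in the Gpnmb Trem2 gate, 0.726 with types taken from the clustering and 0.702 at a 10% mitochondrial limit. In the Gpnmb Trem2 gate 0 of 6 were higher and 2 (Mgl2 and Clec4n) lower, against 2.49% and 6.86%. In interstitial macrophages 0 of 7 were higher and Mgl2 alone was lower, against 2.83% and 4%. In classical monocytes Clec4d was higher and Mrc1, Mgl2 and Clec10a lower, 1 and 3 of 6, against 6.59% and 8.47%, in a gate of 50 PD00 cells. The Clec10a ratio of 0.614, from 10 and 41 UMIs, had an interval that spanned 1 (0.274 to 1.25). The Mgl2 ratio was a bound from 0 UMIs in PD00 against 58 in Model, 47 of them in 1 cell. In type 2 dendritic cells 0 of 5 were higher and Mrc1 and Clec10a were lower, against 6.14% and 6.04%. The Clec10a ratio of 0.663 had an interval that spanned 1 (0.403 to 1.07). The Mrc1 ratio of 0.621 became 0.676 as a mean over cells. In neutrophils 0 of 5 were higher and Mrc1 and Mgl2 were lower, against 5.78% and 15.6%. The Mrc1 ratio of 0.615 became 1.02 with doublets kept, and the Mgl2 ratio of 0.647 became 0.821 with types taken from the clustering. With so few members these shares describe the genes and give no measure of the list.

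**Figure D3:**
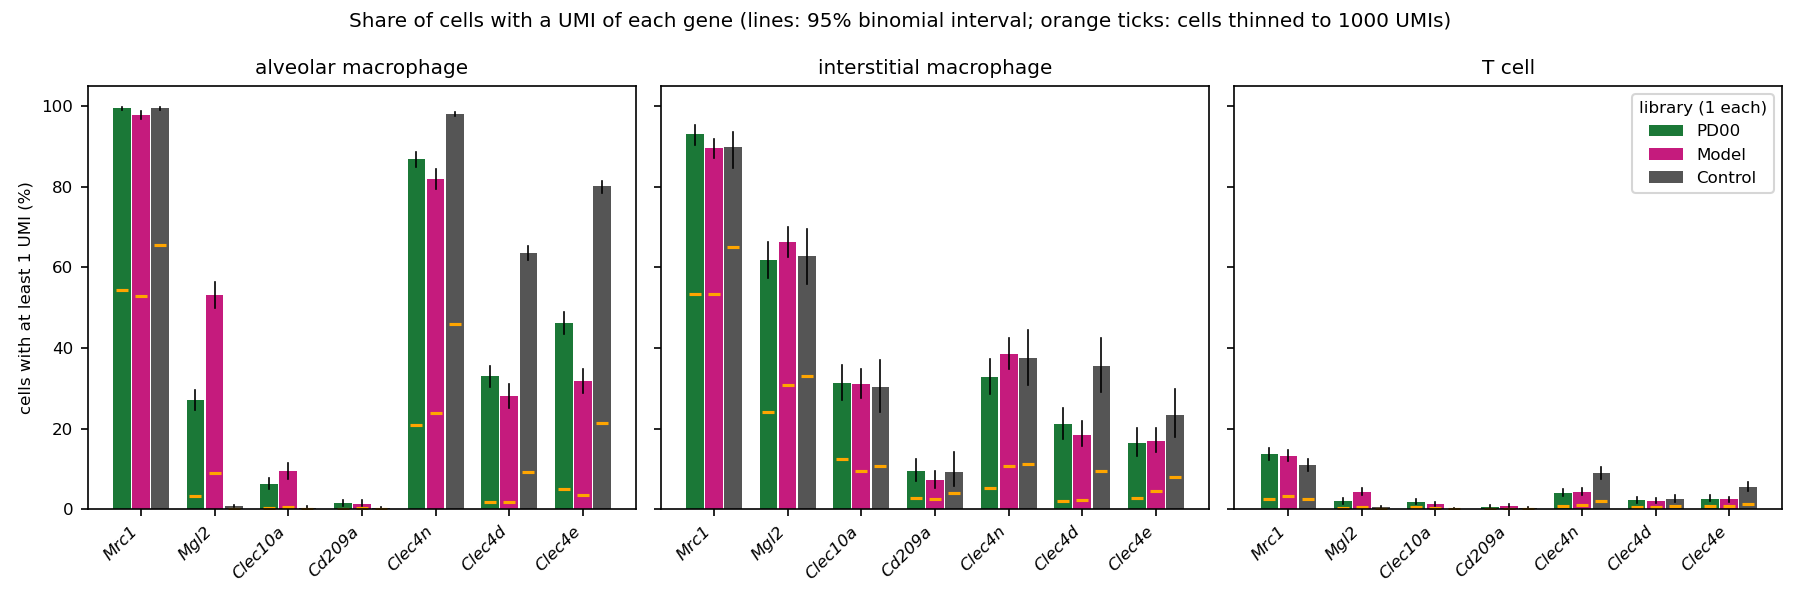
Share of cells with at least 1 UMI of each gene (percent, linear axis from 0) in alveolar macrophages, interstitial macrophages and T cells, with bars for PD00, Model and Control, lines for 95% binomial intervals and orange ticks for the share after thinning to 1000 UMIs. In alveolar macrophages Mgl2 was detected in 27.0%, 53.1% and 0.756% of PD00, Model and Control cells, and Clec4d in 32.9%, 28.0% and 63.6%.

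The number of the 7 genes detected in a single alveolar macrophage had a median of 3 in PD00, 3 in Model and 4 in Control, and 4 or more were detected in 29.9%, 33.0% and 53.7% of cells. In the cases given here a gene was detected more often in cells that also had a second one. Among Model alveolar macrophages with a Clec4e UMI 39.6% also had Clec4d, against 22.7% of those without, and in Control the shares were 67.0% and 50%. The cells with Clec4e were also deeper, with medians of 21259 against 16636 UMIs in Model, so depth moves with this difference and its part was not tested. Among Model interstitial macrophages 35.0% of those with Mgl2 had Clec10a, against 23.6% of those without, at medians of 10154 and 4261.5 UMIs. In PD00 these shares were 33.4% and 27.7%, and in Control 36.4% and 19.7%. Clec10a also shares windows of its transcript end with Mgl2, and the effect of this was not tested.

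Over 55 profiles of gated types and libraries, Clec4d and Clec4e had the most alike levels of any pair among the 7, with a Pearson r of log2(CPM + 1) of 0.93. Mgl2, Clec10a and Cd209a formed a second group at 0.78 to 0.80, and Mrc1 was most like Clec4n (0.70). Among 13432 genes those closest to Mrc1 were F7 (coagulation factor VII, 0.87), Spp1 (osteopontin, itself a marker of the Gpnmb Trem2 gate, 0.85) and Slamf9 (0.83). Mgl2 was closest to Cd209a (0.80) and the chemokine Ccl17 (0.79), Clec10a to Cd209d (0.80), and Cd209a to Timd4 (0.83) and the serotonin receptor Htr7 (0.81). Clec4n was closest to the transporter Slc15a3 (0.87), Tnfaip2 (0.84) and the inflammasome sensor Nlrp3 (0.84). Clec4e was as close to Trem1, a neutrophil marker of the gate (0.93), and Igsf6 (0.93) as to Clec4d, and Clec4d reached 0.90 and 0.89 with the same 2 genes. Profiles from 1 library share its free RNA and depth, so these values describe the 55 profiles only.

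**Figure D4:**
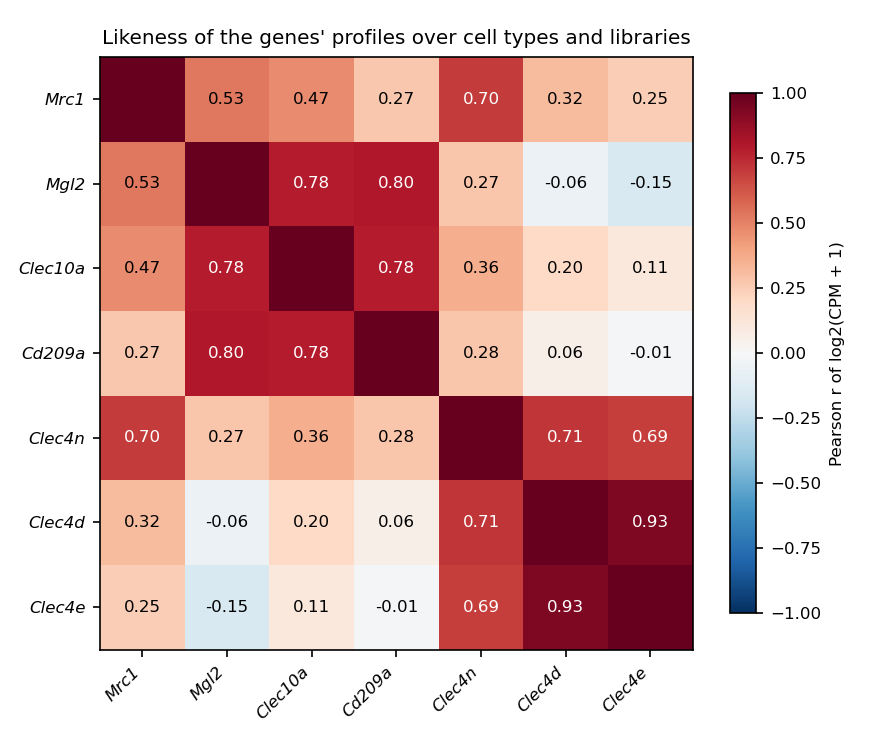
Pearson r of log2(CPM + 1) between each pair of the 7 genes over 55 profiles of gated types and libraries (colour scale from -1 to 1). Clec4d with Clec4e reached 0.93 and Mgl2 with Cd209a 0.80, while Mgl2 with Clec4e was at -0.15.

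Most measured partners in the signalling chain behind Clec4n, Clec4d and Clec4e were lower in Model alveolar macrophages too. Of 10 partners 7 were at least 1.5-fold lower and 1 higher in Model against Control, where 24.6% and 15.7% of all genes were. Their median log2 ratio was -0.72, beside -0.18 for all genes. Plcg2, the phospholipase downstream of Syk, held 26.0 CPM in Model against 69.4 CPM in Control, 2.67-fold lower (2.42 to 2.96). Malt1, the paracaspase of the Card9 complex, stood at 583 and 1420 CPM, 2.44-fold lower (2.39 to 2.49), although T cells differed the other way (535 CPM in Model and 228 CPM in Control). Bcl10, its scaffold partner, was 1.81-fold lower, at 87.6 and 159 CPM, with T cells at 120 and 213 CPM. Prkcd, the kinase that activates Card9, was the exception, with 484 CPM in Model against 202 CPM in Control, 2.39-fold higher (2.32 to 2.47). Fcer1g, the gamma chain itself, had 649 CPM in Model against 985 CPM in Control. In interstitial macrophages 1 of 9 partners was higher and 2 were lower, against 17.5% and 14.5% of all genes. Prkcd was higher, at 372 CPM in Model against 122 CPM in Control. Bcl10 was lower at 147 and 268 CPM, as was Fcer1g at 768 and 1258 CPM. Rel, the NF-kappaB subunit, was at 479 and 687 CPM there. Between PD00 and Model 0 of 10 partners passed 1.5-fold in either direction in alveolar, Gpnmb Trem2 or interstitial macrophages. In the same order of gates 2.79%, 2.49% and 2.83% of all genes were higher and 6.39%, 6.86% and 4% lower. In alveolar macrophages Prkcd stood at 372 CPM in PD00 and 484 CPM in Model, Malt1 at 688 and 583 CPM, Rel at 416 and 355 CPM and Fcer1g at 570 and 649 CPM. In interstitial macrophages those named by the interval bound were Fcer1g at 689 and 768 CPM, Malt1 at 386 and 341 CPM, Bcl10 at 168 and 147 CPM and Rel at 521 and 479 CPM.

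The other C-type lectins went both ways. In Model against Control alveolar macrophages 8 of 14 measured were at least 1.5-fold higher and 3 lower, where 15.7% and 24.6% of all genes were. Those named by the interval bound were all higher in Model. Clec4a1 had 33.2 CPM in Model against 1.17 CPM in Control, and Clec4a2 (the inhibitory receptor DCIR) stood at 366 and 102 CPM. The scavenger receptor Colec12 stood at 133 and 40.2 CPM, and Clec1b (CLEC-2) at 45.7 and 14.6 CPM. In interstitial macrophages 3 of 12 were higher and 4 lower, against 17.5% and 14.5% of all genes. Clec4a3 was higher there, with 249.3 CPM in Model against 145 CPM in Control. Clec12a, an inhibitory receptor for uric acid crystals, was lower, at 59.0 and 188 CPM, as were Colec12 at 136 and 225 CPM and Clec2d at 45.3 and 80.1 CPM; Clec2d was at 57.9 and 50.2 CPM in T cells. Between PD00 and Model 0 of 16 were higher and 3 lower in alveolar macrophages, against 2.79% and 6.39% of all genes. Among the lower was Clec5a at 11.2 CPM in PD00 and 19.96 CPM in Model. Under 1.5-fold, Colec12 stood at 194 and 133 CPM, Ly75 (DEC-205) at 153 and 109 CPM and Clec4a2 at 291 and 366 CPM. In interstitial macrophages 1 of 14 was higher and 3 were lower, against 2.83% and 4% of all genes. Clec1b was higher, at 15.2 CPM in PD00 and 7.31 CPM in Model. Among the lower were Clec4b1 at 22.4 and 33.9 CPM and Ly75 at 7.70 and 13.8 CPM. Ly75 in T cells stood higher, at 22.5 and 16.6 CPM. Olr1, the oxidised lipoprotein receptor LOX-1, stood at 23.6 and 35.0 CPM.

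Genes of alternative macrophage activation were mostly higher in Model than in Control, as Mgl2 was. In alveolar macrophages 7 of 12 were at least 1.5-fold higher and 1 lower, where 15.7% and 24.6% of all genes were. Their median log2 ratio was 4.74, beside -0.18 for all genes. Retnla, a secreted product of interleukin-4 activation, held 1321 CPM in Model against 0.596 CPM in Control, beside 329 and 1.28 CPM in T cells. Arg1 (arginase 1), itself a marker of the Gpnmb Trem2 gate, stood at 495 and 0.367 CPM, and the chemokines Ccl24 and Ccl17 at 385 and 0.344 CPM and at 345 and 0.436 CPM. The Control levels of all 4 were at or below those of their T cells. In interstitial macrophages 7 of 12 were higher and 0 lower, against 17.5% and 14.5% of all genes. Chil3 (Ym1) held 7807 CPM in Model against 175 CPM in Control, beside 3945 and 82.1 CPM in T cells, Retnla at 9420 and 437 CPM, Arg1 at 190 and 1.54 CPM, and Ccl17 at 190 and 7.70 CPM. Between PD00 and Model 0 of 12 were higher and 5 lower in alveolar macrophages, against 2.79% and 6.39% of all genes. Of the lower 5, Ccl17 stood at 111 CPM in PD00 and 345 CPM in Model, a ratio of 0.323 (0.309 to 0.338). Ccl24 stood at 161 and 385 CPM, Pdcd1lg2 (PD-L2) at 28.4 and 59.4 CPM and Arg1 at 267 and 495 CPM. Irf4 stood at 34.6 and 60.8 CPM, beside 59.0 and 49.4 CPM in T cells. Mgl2 was 3.49-fold lower in the same comparison. Retnla stood at 1196 CPM in PD00 and 1321 CPM in Model, a ratio of 0.905, and Chil3 had a PD00 over Model ratio of 1.04. In interstitial macrophages 2 of 12 were lower, against 4% of all genes. Ccl17 stood at 70.3 CPM in PD00 and 190 CPM in Model, and Pdcd1lg2 at 33.0 and 63.4 CPM. Chil3 at 5681 and 7807 CPM and Ccl24 at 282 and 371 CPM stayed under 1.5-fold.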

How the data were processed

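Lung cells of mice were captured in droplets and 3 libraries made with Chromium v3 reagents that read the 3' end of each RNA, per the labels' protocols. The deposited matrices hold raw counts of UMIs per gene and barcode. Cell Ranger 3.1.0, STAR and mm10 are named by the submitters' processing notes, while cellranger 5.0.0 is named per the file headers. Only barcodes called as cells were used (9851 in PD00, 11772 in Model and 10133 in Control, with 80288883, 81816397 and 83281019 UMIs). Free RNA was not corrected for in the levels given.

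Cells with at least 500 UMIs and 200 genes, at most 20% mitochondrial UMIs and a Scrublet score of at most 0.2 were kept (scanpy 1.11.5; 9373 in PD00, 11285 in Model and 9368 in Control). Cells went to the type with most of its 8 markers detected, at least 4, with ties decided by UMIs. A cell led by the Gpnmb Trem2 list that had Plet1 and at least 3 alveolar markers was called an alveolar macrophage. This rule, the minimum of 4 and a minimum of 20 cells per type and library were set after the data were seen. CPM intervals are exact Poisson, shares exact Clopper-Pearson, ratios exact conditional binomial (scipy 1.17.1), and a count of 0 was set at 3 counts. The ratio code was tested on simulated data. A gene was counted as measured from 50 UMIs in the 2 sums together.

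The lectins and gene lists were chosen with earlier results of these data known. Of each list of partners, other lectins and activation genes, the up to 4 with the largest ratio by the interval bound nearest to 1 were named in alveolar and interstitial macrophages, in either comparison; Fcer1g and Irf4 in alveolar macrophages, and Retnla and Chil3 between PD00 and Model, were added after their values were seen. For each gene the 3 most alike among genes with at least 200 UMIs were named. Gene positions come from GENCODE M21 on GRCm38, the build of the files. Alternatives were gates of 3 and 5 markers, Leiden clusters in place of gates, 10% mitochondrial and 500 gene limits, doublets kept, minimums of 1 and 200 UMIs, 2 other scalings, the mean of CPM per cell, and cells thinned to 1000 UMIs. Gates without the Plet1 rule and levels less those of T cells were added after seeing the data.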

Additional observations from a re-analysis of the deposited data

Results flagged for a closer look

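In 3 cases a gene was at least 1.5-fold higher in one type and lower in another in the same pair of libraries, each with an interval clear of 1. Each group is a single library, so the difference between the types was not tested. The types named are those with the largest and the smallest ratio past 1.5-fold. Mrc1 in Model against Control had a ratio of 3.34 in classical monocytes (69.0 CPM in Model and 20.7 CPM in Control), beside T cells at 45.2 and 26.7 CPM, and of 0.611 in type 2 dendritic cells. Mrc1 in PD00 against Model had a ratio of 2.51 in type 1 dendritic cells, where 29 of the 78 PD00 UMIs came from 1 cell and the mean over cells gave a ratio of 1.01, and of 0.446 in classical monocytes, from 14 and 79 UMIs. Mgl2 in PD00 against Model had a ratio of 1.73 in type 1 dendritic cells (0.889 with types taken from the clustering) and of 0.130 in classical monocytes. That monocyte ratio is a bound from 0 PD00 UMIs against 58 in Model, 47 of them in 1 cell. Mgl2 was also past 1.5-fold lower in alveolar macrophages (0.287), the Gpnmb Trem2 gate (0.291), interstitial macrophages (0.529) and neutrophils (0.647).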

How the results depend on the processing

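No paired analysis was possible because each group had 1 library. Over 12 alternatives, 728 of 855 ratios of a lectin stayed within the counting interval of the reported ratio. Of 430 values whose reported ratio was past 1.5-fold, 4 crossed 1, all of PD00 over Model: Clec4d in classical monocytes (0.935) and nonclassical monocytes (0.292) after thinning, Mgl2 in type 1 dendritic cells with Leiden clusters (0.889) and Mrc1 in neutrophils with doublets kept (1.02). Of 425 values whose reported ratio was nearer to 1, 38 crossed 1 and 16 of these left the counting interval. Among them were the Model over Control ratios of Mgl2 in interstitial macrophages (0.864) and Clec4d in nonclassical monocytes (2.98) after thinning, and of Mrc1 in type 1 dendritic cells with gates of 5 markers (1.53). A value after thinning needed only 20 UMIs in the 2 thinned sums together, so it may rest on few counts. Of 25 lower ratios past 1.5-fold, 12 were under it in at least 1 alternative, as were 6 of 13 higher ones. The counts of lectins at least 1.5-fold higher moved as follows. For Model against Control, the 2 of alveolar macrophages became 1 at a minimum of 200 UMIs and 1 without the Plet1 rule, and the 0 of interstitial macrophages became 1 with gates of 5 markers, 1 with clusters and 1 at the 10% mitochondrial limit. The 1 of type 2 dendritic cells became 2 at a minimum of 1 UMI and 0 at 200, and the 3 of classical monocytes became 0 at 200. For PD00 against Model, the 1 of alveolar macrophages became 0 with gates of 3 markers, 0 with means over cells and 0 after thinning. The 0 of type 2 dendritic cells became 2 at a minimum of 1 UMI. The 1 of classical monocytes became 2 with clusters, 2 with means over cells, 2 with T cell levels subtracted and 0 after thinning. The causes were not tested. Type 2 dendritic cells had no cluster of their own, and under gates of 5 markers too few Control cells for a value. Most of them lay in the cluster named for type 1 dendritic cells, so its ratios do not check type 1 cells alone. In alveolar macrophages the Model over Control ratio ranged from 0.119 to 0.1504 for Clec4e, 0.176 to 0.2404 for Clec4d, 0.425 to 0.529 for Clec4n and 0.772 to 0.944 for Mrc1, and the PD00 over Model ratio of Mgl2 from 0.210 to 0.362. Low counts in dendritic cells and monocytes limit their values, and with 1 library each a difference between animals, preparations or conditions cannot be told apart.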

Other observations

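The gates below were picked after their values were seen, and most hold few cells. The plasmacytoid dendritic cell gate of Model (22 cells) held 268 CPM of Cd209a, from 43 UMIs of which 26 came from 1 cell, and that of PD00 (11 cells) 222 CPM, from 19 UMIs. The eosinophil gate held 70 PD00 cells, 88 Model cells and 0 Control cells. It had 190 CPM of Mrc1 in PD00 and 128 CPM in Model, from 20 and 15 UMIs. It had 323 CPM of Clec4e in PD00 and 231 CPM in Model, and 85.5 CPM of Clec4d in PD00 and 94.2 CPM in Model. The basophil or mast cell gate of Control (27 cells) held 532 CPM of Clec4e and 242 CPM of Clec4d.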
